A study of Mus musculus with 60 samples.

Results

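The genes described here are 33 genes of oligodendrocytes and of myelin, the membrane with which these cells wrap axons. They were chosen by name. Their symbols were looked up in release M21 of the GENCODE annotation through the gene identifiers of the deposited table, and all 33 were found among its 18088 genes. No measured value entered the rule, though the genes were chosen with earlier results of these data known. All 33 passed the filter on low values.

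The libraries were made from the prefrontal cortex of C57BL/6J mice aged 25 days. The groups were wild type (WT) and heterozygous Grin2b+/C456Y (Het), with a missense allele of Grin2b, which encodes GluN2B, part of the NMDA receptor for glutamate. From day 3 to day 24 the pups received fluoxetine (a selective serotonin reuptake inhibitor), lithium (a mood stabiliser) or vehicle. The drug reached them through the milk of their mothers, and no dose is given in the sources used here. Each of the 6 combinations of genotype and treatment had 5 female and 5 male libraries, 60 in all. The labels do not say whether replicates are separate animals or litters, so the p-values measure the spread between these samples, which may be technical.

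Oligodendrocytes extend sheets of membrane around axons and compact them into myelin, which insulates the axon and speeds conduction. They arise from precursor cells, and newly formed oligodendrocytes switch on a shared programme of myelin proteins, lipid enzymes and adhesion molecules under transcription factors such as SOX10 and MYRF. In the mouse cortex most of this takes place in the weeks after birth, which includes the weeks of treatment here. In bulk tissue, fewer oligodendrocytes and less RNA per oligodendrocyte cannot be told apart.

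The values are normalised read counts: read counts per gene that the authors divided by 1 size factor per library. Each library held 23901635 to 37769417 reads after this division was undone, and the lowest value of any of the 33 genes in any library was 43.4, for Nkx6-2, so counting error weighs most on the few genes with values near 100. The defining markers were present in every library. Mbp, which encodes myelin basic protein and lies on chromosome 18 at 82475146 to 82585637 (GRCm38), ranged from 23532 to 89344 over the 60 libraries. Mog, for the myelin oligodendrocyte glycoprotein of the outer myelin surface, ranged from 554 to 2503. Mag, for the myelin-associated glycoprotein of the inner membrane facing the axon, ranged from 1775 to 7103.

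Levels between genes were compared per kilobase of the longest annotated transcript, in WT mice on vehicle. Mbp was highest at 14191 normalised reads per kilobase, above 99.7% of the genes in the table. Mobp, another protein of compact myelin, followed at 5473, and Cnp, which encodes the phosphodiesterase of the inner tongue, at 2974. Aspa, the enzyme that cleaves N-acetylaspartate in oligodendrocytes, was lowest at 61.9 and Nkx6-2, a homeobox factor of maturing oligodendrocytes, was next at 73.5. Of the 10 lowest genes, 7 were enzymes, transcription factors, receptors or signalling proteins. Among all 33 genes the lists used here held 8 enzymes, 2 transcription factors and 6 receptor, cytoskeleton and signalling genes. Some of the 33 are also known from other cells: Gsn and Apod from fibroblasts and vessels, Enpp2 from the choroid plexus, Cryab from astrocytes and Sirt2 from neurons, and the Mbp locus also gives golli transcripts in neurons.

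The 33 genes varied widely between replicates. On the log2 scale the median residual standard deviation around the group means was 0.36 over the 33 genes and 0.13 over the 12442 genes with a mean of at least 100, and 31 of the 33 lay above that second median. The 2 sets were not matched on level. Nkx6-2 (0.45), Mobp (0.45), Mal (0.44) and Ermn (0.43) were the most variable. Enpp2 (0.11), Qdpr (0.11), Car2 (0.15), Sirt2 (0.17) and Cryab (0.21) were the least variable.

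The deviations ran together within a library. In 35 of 60 libraries, at least 28 of the 33 genes lay on the same side of the mean of their group of 5, above it in 18 libraries and below it in 17 (the bound of 28 was chosen after the values were seen). In Het fluoxetine females all 33 genes lay below the group mean in replicate 1 (median deviation -0.44) and all 33 lay above it in replicate 5 (0.41). In WT fluoxetine females 32 genes lay below the mean in replicate 2 (-0.81) and 33 lay above it in replicate 5 (0.38). In Het vehicle females replicate 3 had 32 genes below the mean (-0.71) and replicate 2 had 33 above it (0.52). A list of 34 further genes of oligodendrocytes and myelin deviated in the same direction in these libraries. Their median deviations, in the order above, were -0.355, 0.265, -0.483, 0.201, -0.477 and 0.39. For 18 genes of precursors and newly committed cells the medians were -0.173, 0.089, -0.196, 0.256, 0.023 and 0.009. Markers of other cells also deviated in some of these libraries, and their part was not tested. In WT fluoxetine female replicate 5 the median deviation was 0.34 for astrocyte, 0.36 for microglial, 0.37 for endothelial and -0.82 for striatal markers, and in replicate 2 it was -0.58 for striatal markers. In Het vehicle female replicate 3 it was 0.37 for endothelial, 0.25 for microglial and -0.88 for olfactory bulb markers, and in replicate 2 it was 0.62 for striatal markers. In Het fluoxetine females it was -0.35 in replicate 1 and 0.37 in replicate 5 for striatal markers, and -0.67 in replicate 1 for olfactory bulb markers. The deviations of the 33 genes in these single libraries were larger in size than the median fold of the 33 genes in each of the 7 drug and genotype comparisons below, of which the farthest from 0 was -0.32.

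**Figure D1:**
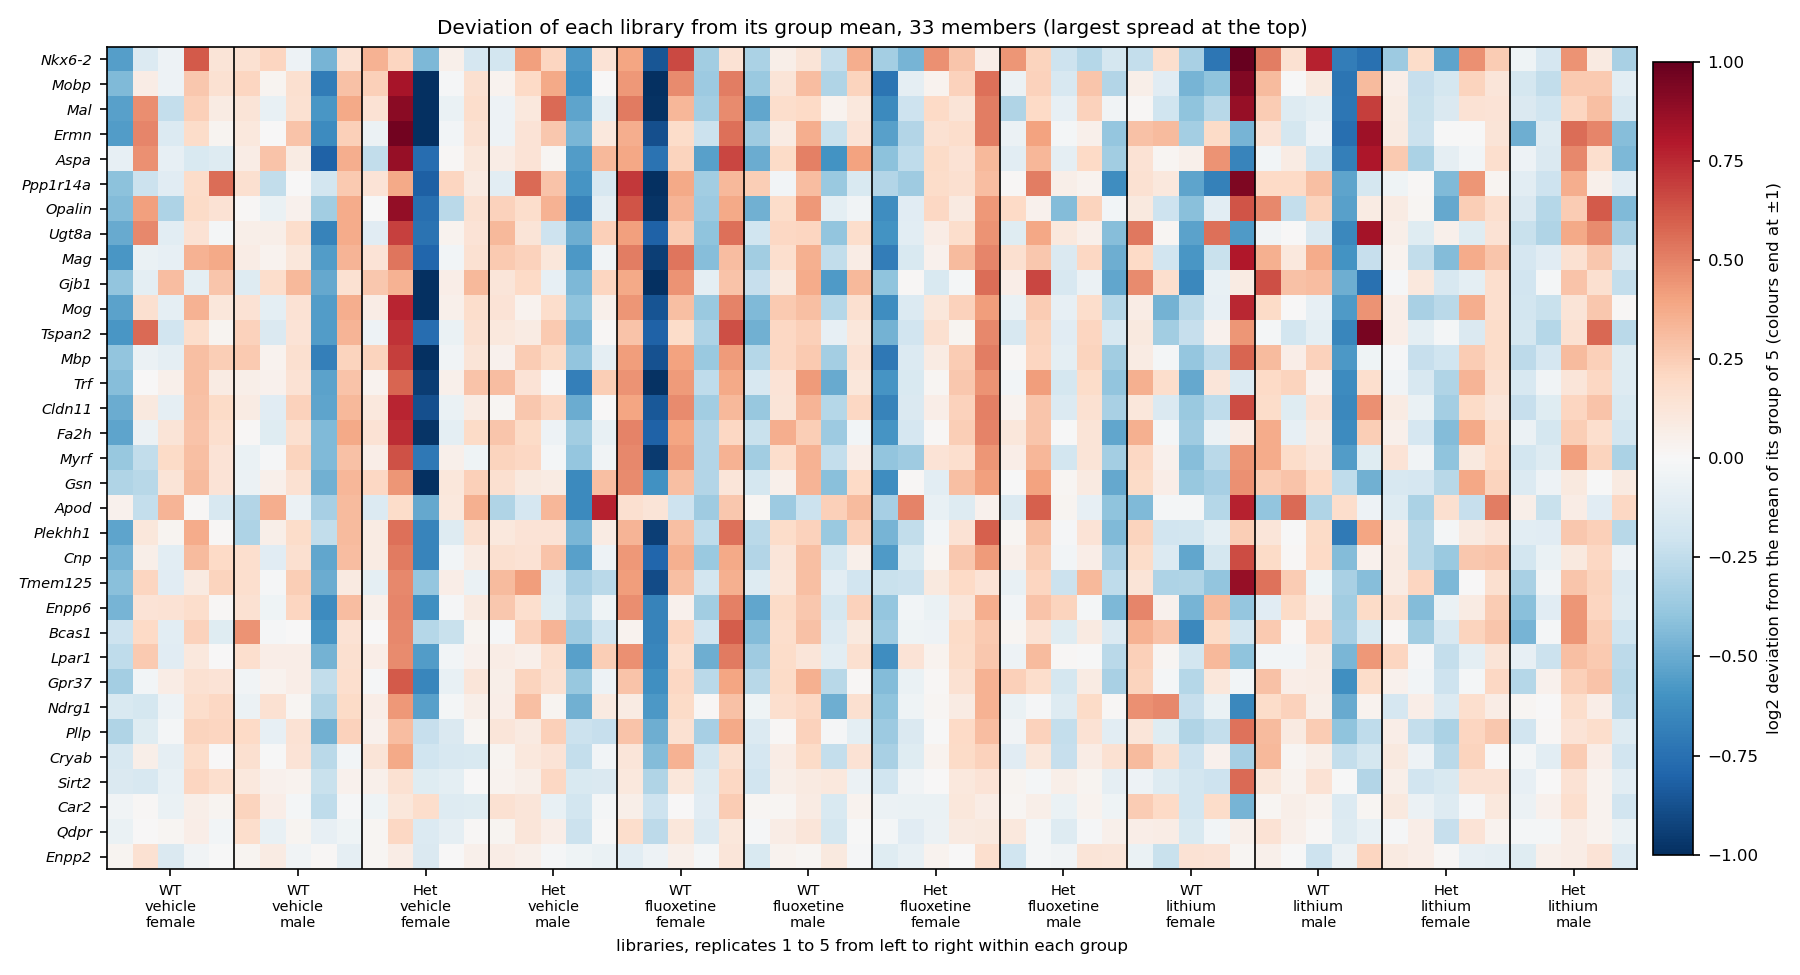
Deviation of the log2 value of each of the 33 genes (rows, most variable at the top) from the mean of its group of 5, in 60 libraries (columns, grouped by genotype, treatment and sex); colours end at a deviation of 1 in either direction. Most columns are mainly of a single colour from the top to near the bottom, as in the 35 libraries with at least 28 genes on the same side, while the rows of Enpp2, Qdpr and Car2 stay pale.

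The sequence before the start sites of the genes was searched for short motifs, and its part in the shared deviations was not tested. RefSeq (GRCm38.p6) gave a promoter for 24 of the 33 genes, and the 250 bases before the start were read on both strands. The letters ACAAAG, the core bound by SOX family factors, were present in 6 of the 24 promoters (25.0%) and in 16.5% of the 32851 promoters in the table. The letters CTGGCAC, a motif of the MYRF type, were present in 3 of 24 (12.5%) and in 4.2% of all. The letters GGGCGG of the GC box were present in 10 of 24 (41.7%) and 32.7% of all. The letters TATAAA of the TATA box were present in 1 of 24 (4.2%), the promoter of Aspa, and 12.4% of all. Matches were counted at any position in the 250 bases, also far from where a TATA box lies. The motifs were chosen after the expression values were seen, a promoter counts once per motif, and a match is one of letters only. The 24 promoters had a median GC content of 57.2% and 12 CpG, against 52.4% and 6 over all, and were not matched on these. For 20 of the 24 the bases after the start opened or lay in a GENCODE M21 transcript of the gene. For Gjb1, Ugt8a, Aspa and Gsn they did not. In no promoter of the 24 did a SOX core overlap a MYRF-type motif. Mag and Cnp held both the SOX core and the MYRF-type motif and Mobp held the SOX core 6 times, which is why their sequences are shown. Each runs 5′ to 3′ on the strand of the gene and covers base 250 to base 51 before the RefSeq start, with matches to ACAAAG or CTGGCAC, or to their reverse complements, in capitals. No exon of GENCODE M21 overlaps these stretches, which lie at chr7:30914914-30915113 (minus strand) for Mag, chr11:100574689-100574888 (plus strand) for Cnp and chr9:120149492-120149691 (plus strand) for Mobp.
Mag: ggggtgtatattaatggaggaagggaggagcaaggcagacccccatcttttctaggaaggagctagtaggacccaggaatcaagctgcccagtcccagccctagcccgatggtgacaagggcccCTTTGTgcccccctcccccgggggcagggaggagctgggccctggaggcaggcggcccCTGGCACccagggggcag
Cnp: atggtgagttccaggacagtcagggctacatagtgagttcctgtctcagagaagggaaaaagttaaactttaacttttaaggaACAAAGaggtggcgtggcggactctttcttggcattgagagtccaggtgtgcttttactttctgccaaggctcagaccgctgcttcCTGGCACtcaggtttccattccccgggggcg
Mobp: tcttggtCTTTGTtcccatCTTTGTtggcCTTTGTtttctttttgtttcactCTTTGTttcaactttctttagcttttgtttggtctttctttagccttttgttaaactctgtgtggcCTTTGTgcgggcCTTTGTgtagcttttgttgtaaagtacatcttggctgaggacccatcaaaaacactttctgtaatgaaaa
In Mag and in Cnp the SOX core lay farther from the start than the MYRF-type motif, and all 6 matches of Mobp were on the strand opposite to the gene.

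Lithium in WT mice gave the most calls among the 33 genes. The test was limma on log2(value + 1), and a gene was called where its p, adjusted by Benjamini-Hochberg over 17810 tested genes, was under 0.05, and fold changes on that scale are given with the standard error (SE) of the model. Of the 33 genes 10 fell, none rose and 23 did not pass, where 9.87% of all genes tested fell and 19.2% were called in either direction. The median log2 fold was -0.32, against 0.004 over all genes, and 32 of 33 folds were below 0. Since the genes moved together from library to library, their directions and calls are not independent of each other, here and in the comparisons below. The 10 genes were Car2 (chromosome 3, 14886273 to 14900770), Bcas1 (chromosome 2, 170346991 to 170427845), Cryab (chromosome 9, 50751325 to 50756636), Qdpr (chromosome 5, 45434021 to 45450236), Enpp6 (chromosome 8, 46986887 to 47096762), Pllp (chromosome 8, 94674894 to 94696278), Lpar1 (chromosome 4, 58435255 to 58553898), Gsn (chromosome 2, 35256380 to 35307892), Nkx6-2 (chromosome 7, 139579376 to 139582797) and Sirt2 (chromosome 7, 28766735 to 28788661), all in GRCm38.

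Of 8 lipid and small-molecule enzymes, 4 fell. Car2, the carbonic anhydrase of oligodendrocytes, had 2600, 3063 and 3615 normalised reads (lowest, median and highest of 10) in WT vehicle and 1678, 2705 and 2828 in WT lithium. The groups overlapped, but all 10 lithium libraries lay below the vehicle mean of their sex. The log2 fold was -0.28 (SE 0.063, limma adjusted p = 0.00108). Enpp6, a choline phosphodiesterase that marks newly forming oligodendrocytes, had 292, 513 and 562 reads in vehicle and 211, 333 and 409 in lithium. Its log2 fold of -0.57 (SE 0.15, limma adjusted p = 0.00543) also had all 10 lithium libraries below the vehicle mean of their sex. Qdpr, the dihydropteridine reductase that regenerates tetrahydrobiopterin, went from 1888 ± 120 to 1646 ± 115 (mean ± SD, n = 10). That is a log2 fold of -0.20 (SE 0.051, limma adjusted p = 0.00428), small in size but with little spread. Sirt2, a deacetylase found in the inner tongue and paranodes, went from 4897 ± 576 to 4327 ± 1082, with a log2 fold of -0.20 (SE 0.072, limma adjusted p = 0.0396). Sirt2 and Nkx6-2 lie outside the 8 genes with the smallest p that the rule names, and were named after their values were seen.

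Among receptors and signalling proteins, 3 of 6 fell. Bcas1, which marks early myelinating oligodendrocytes, had 1753, 2624 and 3593 reads in WT vehicle and 1010, 1790 and 2100 in WT lithium. All 10 lithium libraries lay below the vehicle mean of their sex, with a log2 fold of -0.61 (SE 0.14, limma adjusted p = 0.00159). This was the fold farthest from 0 among the 33 genes in this comparison. Lpar1, a receptor for lysophosphatidic acid, had 705, 1024 and 1158 reads in vehicle and 517, 731 and 1009 in lithium, a log2 fold of -0.44 (SE 0.14, limma adjusted p = 0.0173). Gsn, the actin-severing protein gelsolin, had 2383, 3301 and 4184 reads in vehicle and 1425, 2326 and 3495 in lithium, a log2 fold of -0.49 (SE 0.16, limma adjusted p = 0.0237). For both genes 9 of 10 lithium libraries lay below the vehicle mean of their sex.

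Pllp, which encodes the tetraspan membrane protein plasmolipin, was the gene called among 8 listed under compact myelin and its membrane. It had 858, 1182 and 1401 reads in vehicle and 559, 863 and 1455 in lithium, so that the highest lithium library lay above every vehicle library. Its log2 fold was -0.39 (SE 0.11, limma adjusted p = 0.0113), with 8 of 10 lithium libraries below the vehicle mean of their sex. With only the compared groups fitted its fold was the same and it was not called (limma adjusted p = 0.0504). Cryab, a small heat shock protein, was the gene called among 4 carriers and stress-related genes. It went from 1283 ± 126 to 999 ± 161, with a log2 fold of -0.37 (SE 0.09, limma adjusted p = 0.00295) and all 10 lithium libraries below. Of the transcription factors, Nkx6-2 fell from 140 ± 35.3 to 102 ± 57.5, with a log2 fold of -0.58 (SE 0.20, limma adjusted p = 0.0314), and its lithium group held both the lowest value (43.4) and the highest (244) of the pair of groups. The calls of Sirt2 and Nkx6-2 ended after GC correction (limma adjusted p = 0.0747 and 0.0709), with the compared groups only (0.149 and 0.116) and in edgeR (0.0533 and 0.078). Of 20 fits that left out 1 library, Sirt2 was not called in 11 (limma adjusted p = 0.0541 to 0.108), those without WT lithium female replicates 1 to 4, WT lithium male replicate 5, WT vehicle female replicates 4 and 5 or WT vehicle male replicates 1, 2, 3 and 5. Nkx6-2 was not called in 8 (limma adjusted p = 0.0509 to 0.0851), those without WT lithium female replicates 3 and 4, WT lithium male replicates 4 and 5, WT vehicle female replicates 4 and 5 or WT vehicle male replicates 1 and 2.

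The major myelin proteins had folds of like size and did not pass. Mbp had 44637, 73153 and 85846 reads in WT vehicle and 28699, 48436 and 83460 in WT lithium. Its log2 fold was -0.45 (SE 0.17, limma adjusted p = 0.0568), with 9 of 10 lithium libraries below the vehicle mean of their sex, and edgeR's quasi-likelihood test on recovered reads gave it an adjusted p of 0.0494. Mag was at -0.44 (SE 0.18, limma adjusted p = 0.083) and Cnp at -0.38 (SE 0.15, limma adjusted p = 0.0703). Mobp was at -0.30 (SE 0.20, limma adjusted p = 0.294) and Mog at -0.21 (SE 0.18, limma adjusted p = 0.417). Myrf, the transcription factor that drives myelin genes, was at -0.16 (SE 0.16, limma adjusted p = 0.526). Enpp2, which makes lysophosphatidic acid outside the cell, was the exception in direction at 0.096 (SE 0.048, limma adjusted p = 0.156).

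**Figure D2:**
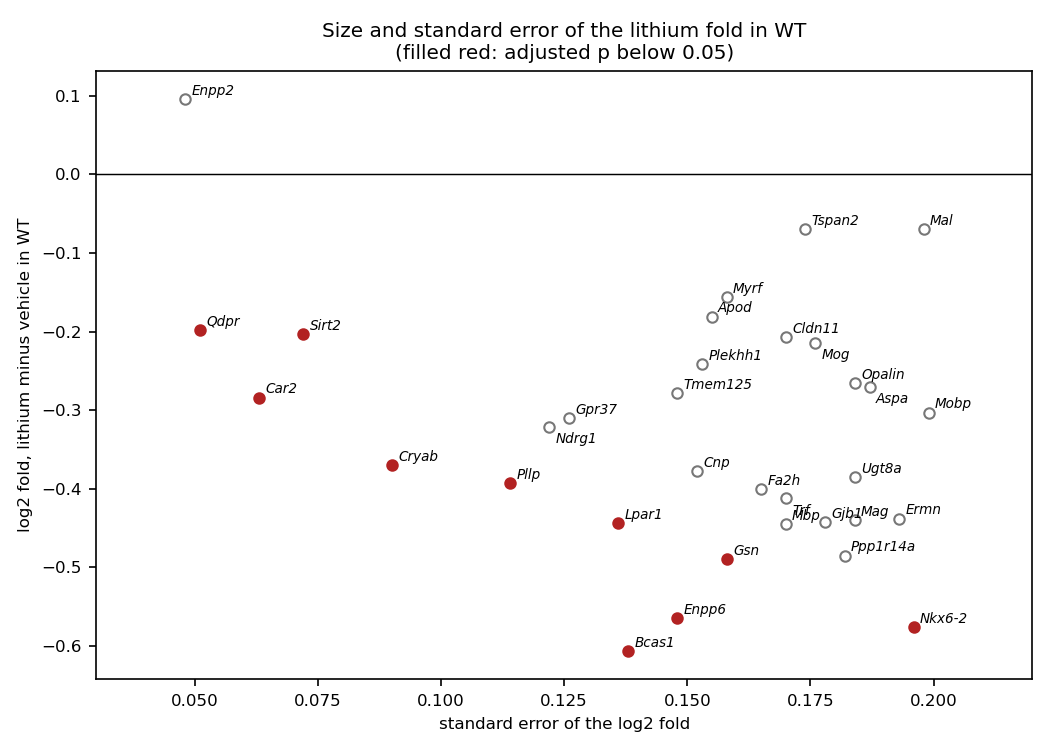
Log2 fold of lithium against vehicle in WT mice (vertical axis) against the standard error of that fold (horizontal axis) for the 33 genes; filled red points were called. Of the points near -0.4, Cryab, Pllp and Lpar1 with standard errors of 0.09, 0.114 and 0.136 were called, while Cnp, Mbp, Gjb1, Mag and Ermn with standard errors of 0.152 to 0.193 were not.

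The plot of fold against standard error shows that the calls divided the genes by replicate spread as well as by size of fold. Leaving out each library in turn gave 7 to 18 genes called, all lower, and 12 were called without the 3 libraries with the largest residuals. The count reached 18 without WT vehicle male replicate 4, in which 32 of the 33 genes lay below their group mean. Without that library Mbp (-0.53, limma adjusted p = 0.0219), Mag (-0.51, limma adjusted p = 0.0462) and Cnp (-0.44, limma adjusted p = 0.0345) were called. The same 3 genes were called without WT lithium female replicate 5 (Mbp -0.52, Mag -0.54 and Cnp -0.46, limma adjusted p = 0.0293, 0.0316 and 0.0274). Gsn was not called without WT lithium female replicate 3 (limma adjusted p = 0.0559), WT lithium male replicate 5 (0.0598) or WT vehicle female replicate 4 (0.0526).

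**Figure D3:**
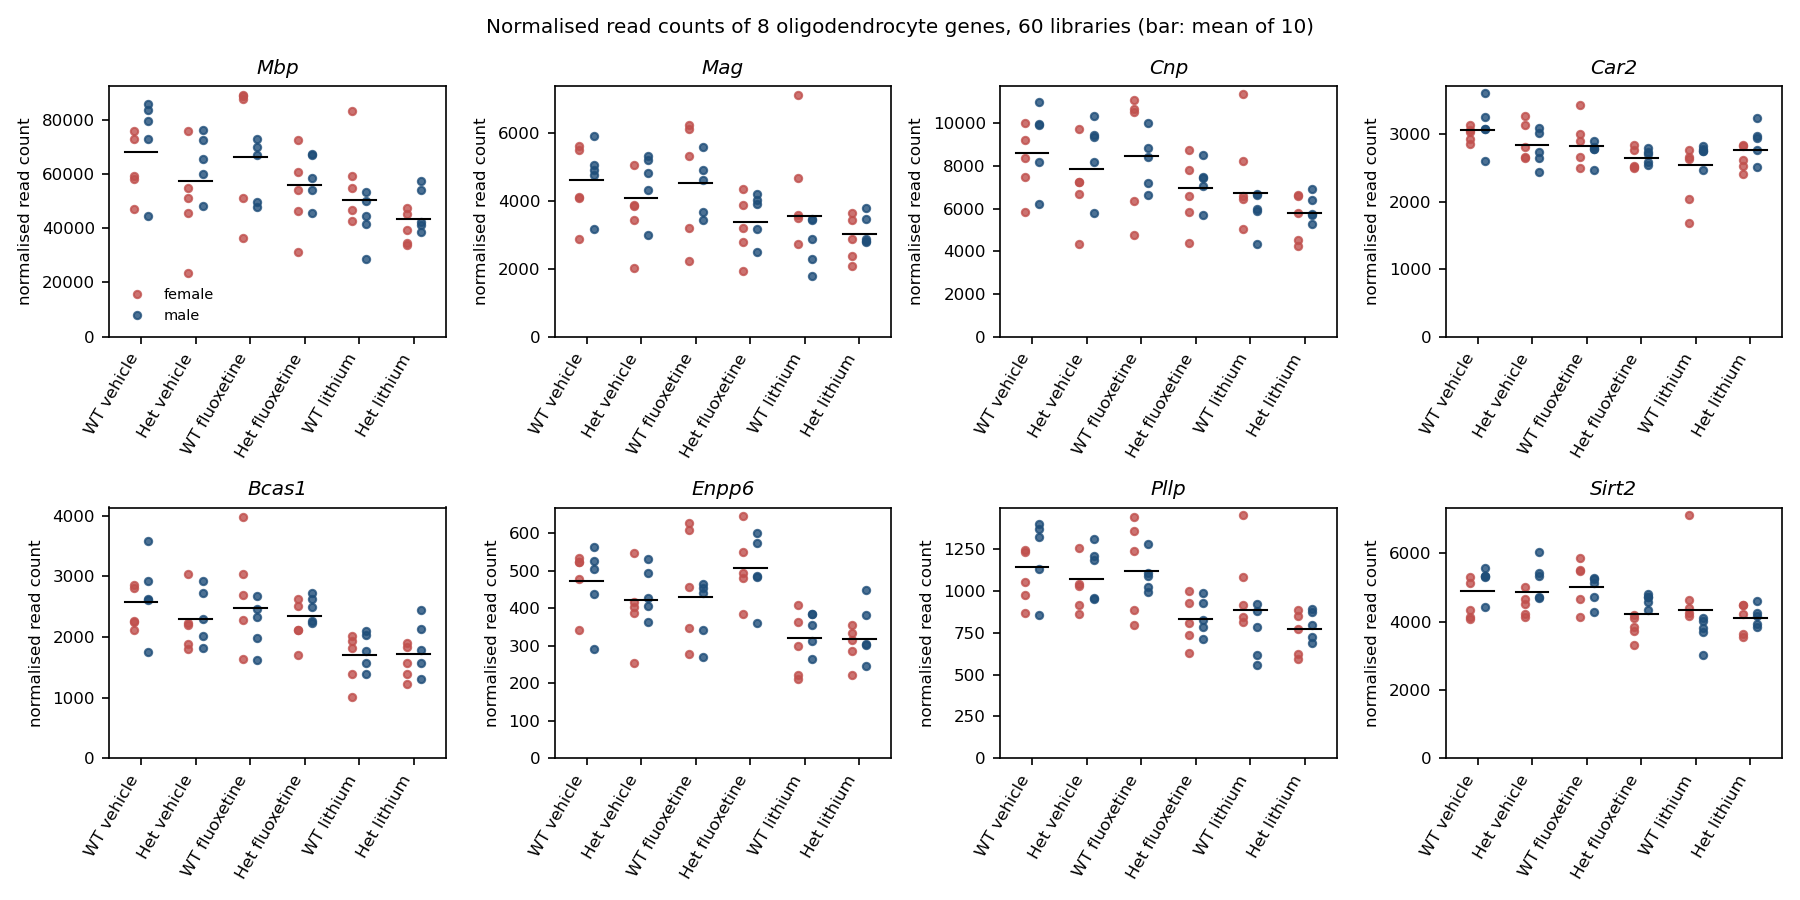
Normalised read count (vertical axis, from 0) of 8 of the genes in all 60 libraries, by genotype and treatment, with females in red, males in blue and the mean of each 10 as a bar. The lithium groups have the lowest means for Mbp, Cnp, Bcas1 and Enpp6, the groups of 10 overlap, and WT lithium female replicate 5 stands above the rest of its group for Mag (7103), Cnp (11401), Pllp (1455) and Sirt2 (7141).

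Other cell types moved in the same comparison. Of 10 markers each, limma called 4 of astrocytes, 8 of microglia, 7 of endothelium and 9 of meningeal fibroblasts lower in WT lithium than in WT vehicle, and none higher. The summed normalised reads of the meningeal fibroblast markers were 5376 to 9545 in WT vehicle and 3568 to 8391 in WT lithium, those of microglia 10320 to 12175 and 7419 to 10613, and those of endothelium 9125 to 11412 and 7291 to 9423. Summed astrocyte markers were 131258 to 166745 in WT vehicle and 120207 to 166314 in WT lithium. Markers of cortical neurons had no call in either direction (124693 to 154125 against 132327 to 152601), with 2 of 10 at an unadjusted p below 0.05. Of the markers of striatal neurons, which a prefrontal dissection can include, Pde10a was called higher and none lower. Their sum was 6358 to 13381 in WT vehicle and 6553 to 36427 in WT lithium, and in WT lithium female replicate 5 they lay a median of 1.54 above their group mean on the log2 scale. Immature olfactory bulb markers had no call, with 0 of 10 at an unadjusted p below 0.05, and sums of 3284 to 16569 and 4110 to 10837. No marker of these lists was at 0 in any group. The part of these cell types in the fall of the oligodendrocyte genes was not tested.

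Genes of other stages and parts of the lineage were lower too. Of 34 further genes of oligodendrocytes and myelin in the table, 11 fell and none rose with lithium in WT mice (median log2 fold -0.23, 29 below 0). Of 18 genes of precursors and newly committed cells 9 fell and 1 rose (median -0.18, 17 below 0). Sox10, a transcription factor of the whole lineage, was at -0.53 (SE 0.10, limma adjusted p = 0.000246), and Gpr17 and Bmp4, which mark committed precursors, were at -0.55 (SE 0.084, limma adjusted p = 1.15e-05) and -0.53 (SE 0.099, limma adjusted p = 0.000174). The other genes that fell were Nkx2-2, Tcf7l2, Olig1, Neu4, Matn4 and Cspg5. The gene that rose was Tnr, the matrix protein tenascin-R, at 0.12 (SE 0.041, limma adjusted p = 0.0425).

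Lithium in Het mice called 1 of the 33 genes, where 0.5% of all genes were called lower and 0.983% in either direction. Pllp had 865, 1036 and 1313 reads in Het vehicle and 591, 784 and 893 in Het lithium, and all 10 lithium libraries lay below the vehicle mean of their sex. Its log2 fold was -0.48 (SE 0.11, limma adjusted p = 0.0278). Without any of 5 libraries the adjusted p of Pllp passed 0.05: Het lithium female replicates 2 and 3 (0.0726 and 0.0618), Het lithium male replicate 1 (0.0521), Het vehicle female replicate 2 (0.0538) and Het vehicle male replicate 3 (0.0608).

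Most other genes had folds below 0 as well, 31 of 33 in all with a median of -0.26, against -0.002 over all genes. Again these directions are not independent of each other. Sirt2 was at -0.24 (SE 0.072, limma adjusted p = 0.0821), Bcas1 at -0.42 (SE 0.14, limma adjusted p = 0.119) and Enpp6 at -0.41 (SE 0.15, limma adjusted p = 0.178). Cnp was at -0.41 (SE 0.15, limma adjusted p = 0.188), Mag at -0.41 (SE 0.18, limma adjusted p = 0.3), Mbp at -0.35 (SE 0.17, limma adjusted p = 0.342), Mobp at -0.33 (SE 0.20, limma adjusted p = 0.477), Mog at -0.31 (SE 0.18, limma adjusted p = 0.435) and Myrf at -0.16 (SE 0.16, limma adjusted p = 0.709). Mbp in its 10 Het lithium libraries ran from 33850 to 57508 with a median of 41808, and in Het vehicle from 23532 to 76231 with a median of 57402. Sirt2 was called when only the groups compared were fitted (limma adjusted p = 0.031), after correction for GC content (0.0429) and without the 3 libraries with the largest residuals (0.0123). In the same comparison 1 of 10 endothelial markers (Tek) was called lower, and no marker of astrocytes, microglia, meningeal fibroblasts or the 3 neuronal lists was called. Those lists had 2, 1, 0, 0, 0 and 1 markers at an unadjusted p below 0.05, in the order astrocytes, microglia, meningeal fibroblasts, striatal, olfactory bulb and cortical neurons. Of the 34 further myelin genes 28 were below 0 with a median of -0.19, none called and 10 at an unadjusted p below 0.05, and of the 18 precursor genes 13 were below 0 with a median of -0.05, none called and 4 at that level.

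The difference between the genotypes in their response to lithium was tested for each gene, and none of the 33 passed in limma or edgeR, where 0.0674% of all genes did in limma and 0.0563% in edgeR. At an unadjusted p below 0.05 there were 2, named after their values were seen: Car2, with a difference of 0.24 (SE 0.089, limma adjusted p = 0.276), and Ndrg1, with 0.37 (SE 0.17, limma adjusted p = 0.408). Car2 had a log2 fold of -0.04 in Het mice, where its mean went from 2844 ± 268 to 2763 ± 252. Bcas1 was at -0.61 in WT and -0.42 in Het mice and Enpp6 at -0.57 and -0.41, differences within their errors. The WT and Het lithium comparisons share no library, whereas each drug comparison shares its vehicle libraries with the genotype comparison in vehicle.

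**Figure D4:**
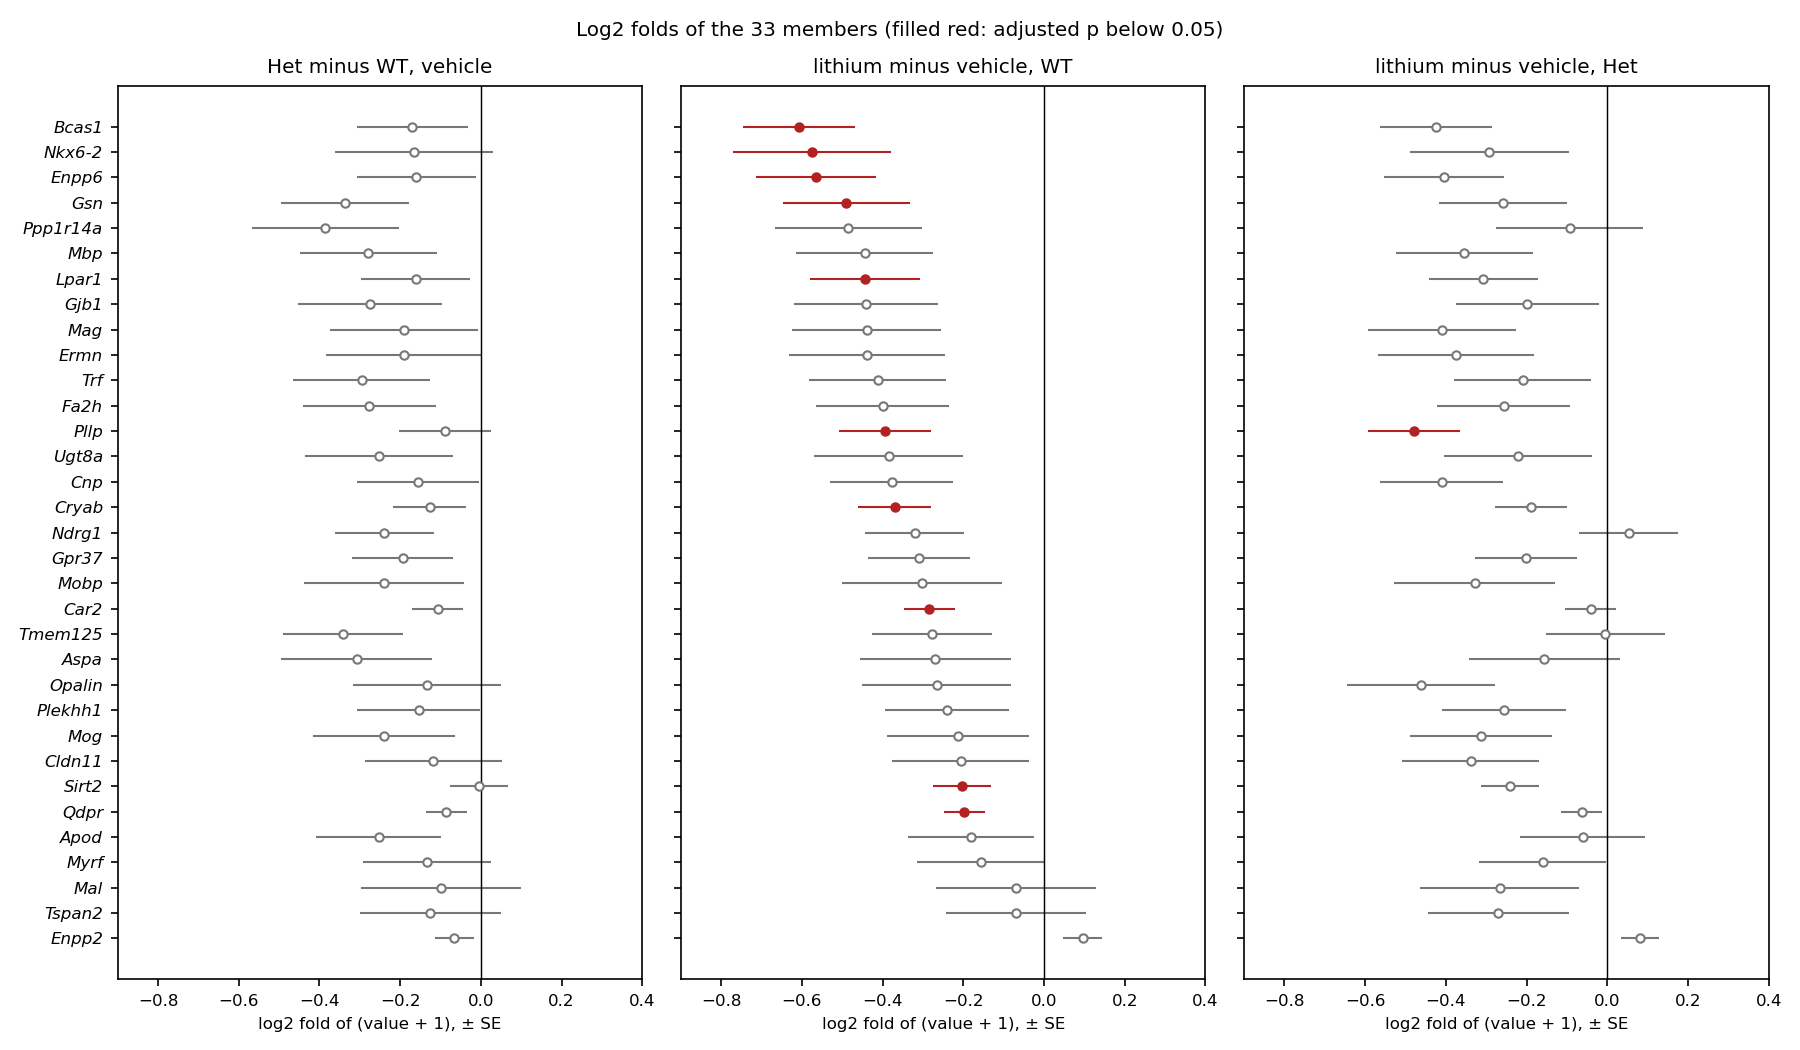
Log2 folds with standard errors of the 33 genes (rows, ordered by the fold of lithium in WT) for Het against WT on vehicle and for lithium against vehicle in each genotype; filled red points were called. All 33 points lie below 0 in the first panel with none called, 32 in the second with 10 called, and 31 in the third with 1 called.

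With the sexes taken apart, lithium in WT mice called 3 genes lower in females (Car2, Bcas1 and Enpp6) and 13 lower in males, where 5.73% and 10.3% of all genes were called lower. The male genes, named after their values were seen, were Sirt2, Pllp, Nkx6-2, Tmem125, Gsn, Mbp, Mag, Cryab, Bcas1, Gjb1, Qdpr, Cnp and Ppp1r14a. Nkx6-2, Tmem125, Gsn, Mag, Gjb1 and Ppp1r14a have transcripts of 55% GC or more, and the others less. In WT lithium male replicate 5, deviations from the mean of all libraries had a correlation of -0.78 with GC content. This was the farthest from 0 of the 60 libraries. The part of that library in the male calls was not tested, and no GC-corrected fit was made within a sex. Mbp was at -0.74 in males (SE 0.24, limma adjusted p = 0.0248). The sex difference in the lithium fold passed for 2 of the 33 genes, both with the higher fold in females. Of all genes, 4.81% passed in that direction and 9.64% in either. Sirt2 was at a log2 fold of 0.074 in females and -0.48 in males, a difference of 0.55 (SE 0.14, limma adjusted p = 0.0227). Tmem125, a transmembrane protein of unknown role, was at 0.21 and -0.77, a difference of 0.98 (SE 0.30, limma adjusted p = 0.0345).

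Sirt2 in WT lithium females was 4643, 4405, 4242, 4167 and 7141 in replicates 1 to 5, and in WT lithium males 4026, 3804, 4114, 3698 and 3031. In vehicle the females had 4126, 4082, 4350, 5308 and 5134 and the males 5573, 5328, 5297, 4439 and 5330. Replicate 5 was thus the highest of the lithium females and the lowest of the lithium males. Tmem125 likewise was 345 in WT lithium female replicate 5, with the others at 143 to 205, and 87.9 in WT lithium male replicate 5, with the others at 94.6 to 173. Without WT lithium female replicate 5 the differences were 0.41 for Sirt2 (limma adjusted p = 0.0909) and 0.76 for Tmem125 (0.123), and neither was called. Neither was called without WT lithium male replicate 5 (limma adjusted p = 0.103 and 0.127) or without WT vehicle female replicate 2 (0.0835 and 0.0886). In addition Tmem125 was not called without WT vehicle female replicate 1 (limma adjusted p = 0.0529) or WT vehicle male replicates 1 (0.051) and 3 (0.0577). Without WT lithium female replicate 4, or without WT lithium male replicate 3, 4 genes passed, with Pllp and Nkx6-2 beside Sirt2 and Tmem125.

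Females and males did not differ in any of the 33 genes when averaged over all groups: limma and edgeR called 0, with 0 at an unadjusted p below 0.05, and 0.107% of all genes were called by limma and 0.101% by edgeR. The folds of females over males were between -0.13 and 0.03, with 30 of 33 below 0 and a median of -0.05. The other 6 sex interactions called none of the 33 genes and no gene at all in limma or edgeR. In limma 4 of the 33 were at an unadjusted p below 0.05 for the sex difference in the genotype effect on lithium, 1 for that on fluoxetine and 0 in the other 4.

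On vehicle, no gene of the 33 differed between Het and WT mice by limma or edgeR, where limma called 0.59% of all genes and edgeR 0.506%. All 33 log2 folds were below 0, with a median of -0.17 against -0.002 over all genes, and a range of -0.39 to -0.004. Since the genes moved together from library to library, the 33 directions are not independent of each other. At an unadjusted p below 0.05 there were 3 genes. Tmem125 was at -0.34 (SE 0.15, limma adjusted p = 0.388), Gsn at -0.34 (SE 0.16, limma adjusted p = 0.464) and Ppp1r14a, an inhibitor subunit of myosin phosphatase, at -0.39 (SE 0.18, limma adjusted p = 0.466). The next smallest p belonged to Ndrg1, a stress-responsive protein of myelinating cells, at -0.24 (SE 0.12, limma adjusted p = 0.533), and to the iron carrier transferrin, Trf, at -0.29 (SE 0.17, limma adjusted p = 0.606).

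Mbp had 23532, 57402 and 76231 reads in Het vehicle (lowest, median and highest) beside 44637, 73153 and 85846 in WT vehicle. Its log2 fold was -0.28 (SE 0.17, limma adjusted p = 0.634), with 7 of 10 Het libraries below the WT mean of their sex. The lowest Het library, female replicate 3, was the one with 32 of 33 genes below its group mean. Mobp and Mog were at -0.24 (SE 0.20 and 0.18, limma adjusted p = 0.767 and 0.722), Mag at -0.19 (SE 0.18, limma adjusted p = 0.822), Cnp at -0.16 (SE 0.15, limma adjusted p = 0.824) and Myrf at -0.13 (SE 0.16, limma adjusted p = 0.861). Sirt2 was nearest to 0 at -0.004 (SE 0.072). Within a sex the median fold was -0.29 in females, with 33 of 33 below 0, and -0.10 in males, with 26 of 33 below 0. None of the 33 was called in either, where 0% of all genes were called in females and 0.118% in males. Leaving out each library in turn kept the count at 0, and the fold of Mbp stayed between -0.37 and -0.16. Of 10 meningeal fibroblast markers 10 were below 0 as well, with a median of -0.22 and 0 called (5 at an unadjusted p below 0.05), and of 18 precursor genes 16 were below 0, with a median of -0.09 and 0 called by limma (0 at an unadjusted p below 0.05). The olfactory bulb markers were all 10 below 0 with a median of -0.47 and 0 called, and their sums were 3284 to 16569 in WT vehicle and 3095 to 15785 in Het vehicle. The part of these lists in the folds of the 33 genes was not tested.

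On lithium, Het and WT mice did not differ in any of the 33 genes by limma or edgeR, where limma called 0.0281% of all genes and edgeR 0.0338%. The median fold was -0.11 and 26 of 33 were below 0. Car2, at 0.14 (SE 0.063, limma adjusted p = 0.401), was the gene at an unadjusted p below 0.05. All 8 genes listed under compact myelin and its membrane, among them Tmem125 of unknown role, were below 0, from -0.33 to -0.07. Mog was at -0.34 (SE 0.18, limma adjusted p = 0.458), Opalin, a glycoprotein of oligodendrocytes, at -0.33 (SE 0.18, limma adjusted p = 0.499) and Tspan2, a tetraspanin, at -0.32 (SE 0.17, limma adjusted p = 0.475). Mobp was at -0.27, Mbp and Cnp at -0.19, Mag at -0.16 and Myrf at -0.14, with limma adjusted p of 0.622 to 0.772, and Enpp2 at -0.081 (limma adjusted p = 0.531). The striatal markers were all 10 below 0 here with a median of -0.41 and 0 called, with sums of 6553 to 36427 in WT and 6970 to 12087 in Het mice, and their part in the result was not tested. Within a sex the median fold of the 33 genes was -0.24 in females and 0.04 in males, with 28 and 10 of 33 below 0. None of the 33 was called in either, where 0.197% of all genes were called in females and 0% in males, and none for the sex interaction.

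Fluoxetine in WT mice called none of the 33 genes in limma or edgeR, with 0 at an unadjusted p below 0.05, where limma called 8.43% of all genes and edgeR 8.44%. The folds ran from -0.23 to 0.10 with a median of -0.044, and 21 of 33 were below 0. Mbp was at -0.065 (SE 0.17), with 36276, 68703 and 89344 reads in WT fluoxetine, and Mag, Cnp and Mobp were at -0.053, -0.049 and -0.042. Mog was at 0.017 and Myrf at 0.098. The smallest p belonged to Car2 at -0.12 (SE 0.063, limma adjusted p = 0.268), Lpar1 at -0.23 (SE 0.14, limma adjusted p = 0.346), Enpp6 at -0.17, Ermn, a cytoskeletal protein of myelin, at -0.19 and Ugt8a, the enzyme that makes galactosylceramide, at -0.17 (limma adjusted p = 0.557 to 0.636). In the same comparison 4 of 10 endothelial markers were called lower (Tek, Flt1, Cdh5 and Cldn5), and the striatal marker Pde10a was called higher (0.55, SE 0.17, limma adjusted p = 0.0389). Of the 18 precursor genes 3 were called lower, Tcf7l2, Nkx2-2 and Gpr17, and of the 34 further myelin genes 1, Elovl7.

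Fluoxetine in Het mice called 3 of the 33 genes, 1 higher and 2 lower, where 19.1% of all genes were called higher, 19.9% lower and 39% in either direction. Enpp2 rose from 5298, 5798 and 6153 to 5548, 6470 and 7431 reads (lowest, median and highest), a log2 fold of 0.19 (SE 0.048, limma adjusted p = 0.00177), with 9 of 10 fluoxetine libraries above the vehicle mean of their sex. Pllp fell from 865, 1036 and 1313 to 630, 816 and 1001, a log2 fold of -0.36 (SE 0.11, limma adjusted p = 0.00945). Sirt2 fell from 4880 ± 584 to 4235 ± 492, a log2 fold of -0.21 (SE 0.072, limma adjusted p = 0.0203). For Pllp and Sirt2 all 10 fluoxetine libraries lay below the vehicle mean of their sex. The median fold of the 33 genes was -0.008, with 18 below 0. Mag was at -0.26 (limma adjusted p = 0.275), Cnp at -0.15 (0.451), Myrf at -0.061 (0.798), Mbp at -0.008 (0.976), Mobp at 0.020 (0.948) and Mog at 0.098 (0.701). Beside these, 6 of 10 endothelial markers were called lower, and 1 each of astrocytes (Aldoc) and microglia (Trem2), while 2 of meningeal fibroblasts (Dcn and Ogn) were called higher. Of the cortical neuron markers Fezf2 and Slc17a7 were called lower and Gad2 higher. Of the 34 further myelin genes 5 were called lower and 4 higher, and of the 18 precursor genes 6 lower and 4 higher, among them Nkx2-2 (-0.77, SE 0.11, limma adjusted p = 2.99e-07) and Sox10 (-0.31, SE 0.10, limma adjusted p = 0.0132) lower and Tnr (0.32, SE 0.041, limma adjusted p = 4.74e-08) higher. The part of the other cell types in the result was not tested. None of the 3 calls among the 33 genes held after GC correction, as given further below. The calls on these other lists come from the fit without that correction. The summed endothelial markers were 8897 to 13633 in Het vehicle and 8139 to 10074 in Het fluoxetine.

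On fluoxetine, Het mice had 6 of the 33 genes lower than WT mice and none higher, where 19.9% of all genes were called lower and 39.5% in either direction. Ppp1r14a had 47.9, 76.8 and 106 reads in Het fluoxetine beside 57.6, 132 and 200 in WT fluoxetine, a log2 fold of -0.70 (SE 0.18, limma adjusted p = 0.00189). Pllp had 630, 816 and 1001 beside 794, 1097 and 1445 (-0.42, SE 0.11, limma adjusted p = 0.00275), and Sirt2 had 3324, 4271 and 4811 beside 4132, 5179 and 5872 (-0.25, SE 0.072, limma adjusted p = 0.00474). For these 3 genes and Cryab (-0.25, SE 0.09, limma adjusted p = 0.0233) all 10 Het libraries lay below the WT mean of their sex. Qdpr was at -0.13 (SE 0.051, limma adjusted p = 0.0318), and Gjb1, the gap junction protein connexin 32, at -0.46 (SE 0.18, limma adjusted p = 0.0335). Of 20 fits that left out 1 library, Gjb1 was not called in 9 (limma adjusted p = 0.0536 to 0.0779), those without Het fluoxetine female replicates 1 and 3, Het fluoxetine male replicates 3 and 5, WT fluoxetine female replicates 1, 3 and 5 or WT fluoxetine male replicates 3 and 5, nor with the compared groups only (0.059). Qdpr was not called in 8 (limma adjusted p = 0.0541 to 0.0821), those without Het fluoxetine female replicates 2 and 3, Het fluoxetine male replicate 3, WT fluoxetine female replicates 1, 3 and 5 or WT fluoxetine male replicates 2 and 3. Cryab was not called in 3 (limma adjusted p = 0.0538 to 0.0667), those without Het fluoxetine female replicate 1, Het fluoxetine male replicate 3 or WT fluoxetine female replicate 3. Mag was at -0.40 (limma adjusted p = 0.0822), Myrf at -0.29 (0.14), Cnp at -0.26 (0.174), Mbp at -0.22 (0.314), Mobp at -0.18 (0.511) and Mog at -0.16 (0.504). The count was 13 without WT fluoxetine female replicate 2, in which 32 of the 33 genes lay below their group mean, and 3 without WT fluoxetine female replicate 3 or Het fluoxetine male replicate 3. After GC correction 0 of the 33 genes were called, as given below, and the calls on other lists that follow come from the fit without it. Of the 34 further myelin genes 11 were called lower and 2 higher, and of the 18 precursor genes 8 lower and 3 higher. Of 10 markers each, 3 of astrocytes, 2 of microglia, 2 of endothelium and 1 of meningeal fibroblasts were called lower, 1 of meningeal fibroblasts and 4 of cortical neurons were called higher, and their part in the result was not tested. In females alone 5 genes were called lower (Sirt2, Qdpr, Pllp, Cryab and Ppp1r14a) and in males none, where 16.3% and 1.88% of all genes were called lower, and the sex interaction called none.

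The folds in this comparison went with the GC content of the transcripts. Over the 33 genes the Pearson correlation between fold and GC content was -0.86 (the genes share their libraries, and no p is given). The 6 genes under 45% GC (Ermn, Ugt8a, Aspa, Tspan2, Enpp6 and Enpp2) all had folds above 0, with a median of 0.19. The 8 genes with 55% or more (Mag, Gjb1, Fa2h, Myrf, Nkx6-2, Ppp1r14a, Tmem125 and Gsn) all had folds below 0, with a median of -0.34 (both bounds were chosen after the values were seen). After a GC correction the correlation was -0.32 and 0 of the 33 genes were called, with Ppp1r14a at -0.42 (limma adjusted p = 0.112), Pllp at -0.32 (0.0545) and Sirt2 at -0.14 (0.206). A further fit had a term for the 10 libraries that are low in a group of 16 pseudogenes. Of these 10, 9 were the Het fluoxetine libraries other than male replicate 1. The remaining library was WT vehicle female replicate 2, whose deviations had a correlation of -0.58 with GC content. It belongs to the reference group of lithium in WT mice, fluoxetine in WT mice and genotype on vehicle. The pseudogenes were picked for a large called difference between Het and WT mice on fluoxetine, so the term nearly repeats the Het fluoxetine label. With it 0 of the 33 genes were called as well, an outcome that this choice largely fixed. Under that term the folds were -0.57 for Ppp1r14a, -0.37 for Pllp, -0.35 for Cryab, -0.37 for Gjb1, -0.14 for Sirt2 and -0.075 for Qdpr (limma adjusted p = 0.831 to 0.967), so the loss of a call there does not show that the fold was removed. For fluoxetine in Het mice the correlation was -0.74 before and -0.09 after the GC correction. None of its 3 calls held in the corrected fit (Enpp2 at 0.088, limma adjusted p = 0.0989, Pllp at -0.27, 0.082, and Sirt2 at -0.10, 0.321) or with the library term, where Enpp2 was at -0.009, Sirt2 at -0.098 and Pllp at -0.31 (limma adjusted p = 0.989, 0.909 and 0.731). What set these libraries apart was not tested, and with nearly all of them in a single group it cannot be told apart from fluoxetine in Het mice. For lithium in WT mice the correlation was -0.26 before and 0.05 after the correction, and 10 genes were called in each fit, of which 8 were called in both. Sirt2 (-0.17, limma adjusted p = 0.0747) and Nkx6-2 (-0.44, 0.0709) were not called after the correction, and Ermn (-0.50, 0.0312) and Ugt8a (-0.45, 0.0403) were.

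**Figure D5:**
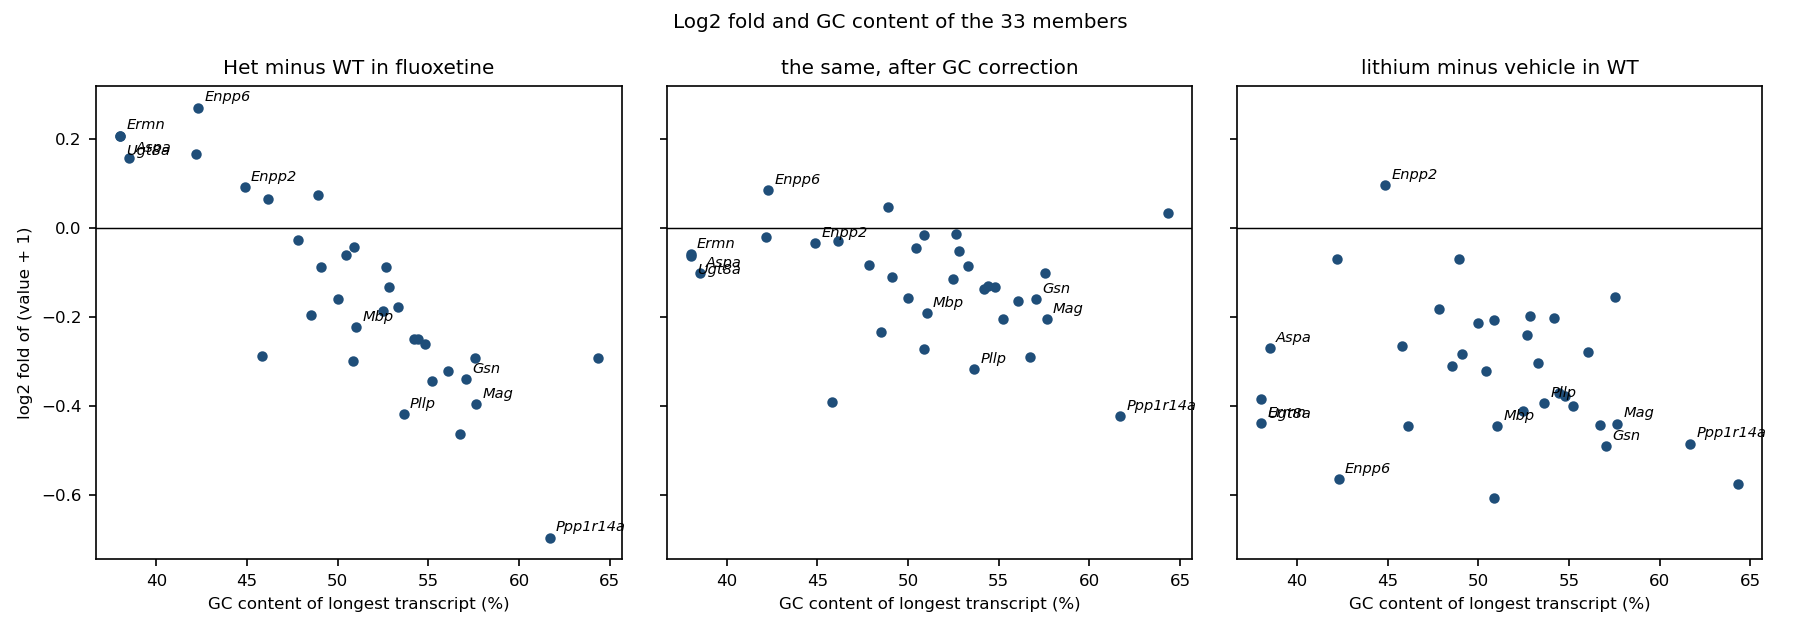
Log2 fold (vertical axis) against GC content of the longest transcript (horizontal axis, percent) of the 33 genes, for Het against WT on fluoxetine as fitted, the same after GC correction, and lithium against vehicle in WT mice. The first panel slopes from 0.27 for Enpp6 to -0.70 for Ppp1r14a (Pearson correlation -0.86), the second is flatter (-0.32), and in the third nearly all points lie below 0 at every GC content (-0.26).

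The difference between the genotypes in their response to fluoxetine passed for none of the 33 genes in limma or edgeR, with 4 at an unadjusted p below 0.05, where 24% of all genes passed in limma and 24.2% in edgeR. Of these 4, named after their values were seen, Sirt2 was nearest, with a difference of -0.24 (SE 0.10, limma adjusted p = 0.0713), and Enpp2 was at 0.16 (SE 0.068, limma adjusted p = 0.0842). Enpp6 was at 0.43 (SE 0.21, limma adjusted p = 0.124) and Pllp at -0.33 (SE 0.16, limma adjusted p = 0.126). Sirt2 passed without WT fluoxetine female replicate 2 (limma adjusted p = 0.0361), without WT vehicle female replicate 4 (0.0451) and without the 3 libraries with the largest residuals (0.0124). Enpp2 passed without Het fluoxetine male replicate 1 (limma adjusted p = 0.0394), and both passed when only the groups compared were fitted (0.0293 for Sirt2 and 0.0446 for Enpp2).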

How the data were processed

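RNA from prefrontal cortex was sequenced in 60 libraries, 12 groups of 5. The deposited values are a signal: normalised read counts, for which the authors divided the reads of each gene by 1 size factor per library. Salmon 0.11.2, DESeq2 1.19.11, R 3.6.0 and GRCm38 are named, per the submitters' processing notes, without roles, and these do not say whether counting used strand. Whole reads were recovered for 100% of values within 0.001. Of 18088 identifiers, 18077 matched GENCODE M21. The test was limma 3.58.1 (R 4.3.3) on log2(value + 1) with 12 group means, trended and robust variances and 48 residual degrees of freedom, for the 17810 genes that reached a value of 10 in 5 or more libraries. Benjamini-Hochberg adjustment ran within each of 17 contrasts. The genes named are, in each of 7 comparisons averaged over sex, the called ones with the smallest p, up to 8 in each direction (where fewer than 3 were called, also those with the smallest p, up to 5 in all), and always Mbp, Mog, Mag, Mobp, Cnp and Myrf, and in interactions up to 6 called. Alternatives were edgeR 4.0.16 on recovered reads (17776 genes), TMM factors, no filter, a pseudocount of 5, the compared groups only, a replicate block, a GC correction (loess, span 0.3), leaving out libraries, and a library term. The fit was tested on simulated reads drawn separately for each gene. Those data held no shared deviations and no GC differences between libraries, so that test does not cover them. The 33 genes and all lists were chosen with earlier results of these data known.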

Additional observations from a re-analysis of the deposited data

Results flagged for a closer look

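In groups of 5, 300 sets of values of 25 genes were examined for a sample far from the others, with a gap above 0.71 of the range. Of these, 9 (3.0%) were marked, where chance marks about 1 in 20. WT vehicle male replicate 4 was low in Sirt2 (4439.1, the others 5296.9 to 5572.8) and Lpar1 (705.0, the others 1023.6 to 1097.4). WT lithium male replicate 4 was low in Car2 (2465.0, the others 2743.3 to 2828.0) and Trf (1515.2, the others 2410.1 to 2733.5). WT lithium female replicate 5 was high in Mobp (31041.7, the others 11830.3 to 17013.1) and Sirt2 (7140.7, the others 4167.2 to 4643.4). WT lithium male replicate 5 was high in Tspan2 (6113.9, the others 2014.3 to 3123.2). Het vehicle male replicate 4 was low in Mog (1137.3, the others 1547.3 to 1703.1), and WT fluoxetine male replicate 4 was low in Car2 (2471.1, the others 2778.6 to 2901.5).

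The response to lithium in WT mice differed between females and males by a test of the difference for Sirt2 (0.554, limma adjusted p = 0.0227) and Tmem125 (0.975, limma adjusted p = 0.0345). Neither difference passed without WT lithium female replicate 5, without WT lithium male replicate 5 or without WT vehicle female replicate 2. The same held after GC correction and with the compared groups only.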

How the results depend on the processing

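Of 153 counts of called genes under settings that left out no single library in turn, 140 stayed within 1.5 times the value reported. Most of the 153 belong to comparisons with 0 genes reported, where 0 against 0 was taken as unchanged. The pooled share therefore says little about the comparisons that had calls. The 13 counts that moved are given next. With the GC correction and with the library term, the counts were 0 and 0 for genotype on fluoxetine (6 as reported) and 0 and 0 for fluoxetine in Het mice (3 as reported). The library term was built from pseudogenes that differ between Het and WT mice on fluoxetine, so its counts of 0 there were largely fixed by that choice. For lithium in Het mice the count was 2 with the compared groups only, 2 with the GC correction and 2 without 3 libraries, those of the largest residuals (replicate 5 of WT lithium females, WT lithium males and Het vehicle males). For the fluoxetine by genotype difference it was 2 with the compared groups only and 1 without those 3 libraries. For the sex difference in the lithium response of WT mice it was 0 with the compared groups only, 0 with the GC correction, 0 without those 3 libraries and 1 with the library term. Leaving out each library in turn gave 3 to 13 for genotype on fluoxetine, 7 to 18 for lithium in WT mice, 0 to 1 for lithium in Het mice, 0 to 1 for the fluoxetine by genotype difference and 0 to 4 for that sex difference, with the libraries named beside each result. The cause was not tested.

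For fluoxetine in Het mice the single genes that changed sign were Mbp (0.027 with the GC correction, 0.031 with the library term), Myrf (0.117 and 0.113), Mobp (-0.035 with edgeR, -0.056 with the library term), Mog (-0.032 with the library term) and Enpp2, which was called as reported at 0.187 (-0.009 with the library term). Leaving out each library in turn moved Mbp between -0.133 and 0.08, Mog between -0.035 and 0.192, Mobp between -0.131 and 0.124 and Myrf between -0.15 and 0.019 there. For fluoxetine in WT mice it moved Mbp between -0.15 and 0.044, Mog between -0.053 and 0.125, Mag between -0.125 and 0.065, Mobp between -0.129 and 0.091 and Cnp between -0.113 and 0.05.

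The replicate numbers are shared between groups. Over 330 pairs of libraries with the same number the median correlation of deviations was -0.011, with 107 over 0.1. For pairs with different numbers the median was 0.006. These medians show no pairing by number across the groups as a whole, and cannot exclude it between particular groups. A fit with the number as a replicate block called 10 of the 33 genes for lithium in WT mice and changed none of the counts reported. Depth limits most the genes with the fewest reads, such as Nkx6-2 and Ppp1r14a.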
